A study of Mus musculus with 9 samples.

Results

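Brown adipose tissue was profiled here through 10 genes of the brown adipocyte thermogenic program, listed by name and matched exactly to the gene symbols: Ucp1, Cidea, Elovl3, Dio2, Ppara, Esrra, Ppargc1a, Ppargc1b, Prdm16 and Ebf2. All 10 were found among the 24356 symbols, and all 10 had a value above 0 in every library, so that none was lost to the filter that left 14675 genes for testing. The RNA-seq libraries came from brown adipose tissue of 9 mice, 2 KO females, 2 KO males, 3 WT females and 2 WT males. KO mice carry a disrupted growth hormone releasing hormone gene (GHRH-KO), a change present in all cells of the body, and WT mice are their littermates on a mixed C57BL6 and 129SV background. All animals had free access to chow and were kept at 20 to 23 °C. Their ages are not given in the sources used here. The libraries are numbered within each group only to name them. Each library is 1 animal by the labels.

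Brown adipocytes burn fatty acids and glucose to make heat. In the cold, noradrenaline raises cyclic AMP in these cells, which releases fatty acids and activates CREB and ATF factors together with the coactivator PGC-1α, while thyroid hormone made inside the cell adds to the response. Uncoupling protein 1 (UCP1) then lets protons flow back into the mitochondrial matrix without making ATP, and PRDM16, EBF2 and the PPAR receptors keep the cell committed to this fate.

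Expression is given as FPKM, the fragments of a gene per unit of transcript length and of library size. This measure allows for gene length and library size, but not for a different RNA makeup of the libraries. Summed FPKM were 380558 to 443569 per library and 16251 to 17054 genes were above 0. The number of fragments is unknown, but relative depth estimated from the lowest values was 0.917 to 1.14. The targeted gene was above 0 FPKM only in libraries labelled KO. Ghrh (chr2:157329497-157347506, mm10, minus strand) was at 0 FPKM in the 5 libraries labelled WT and at 0.233 to 0.846 FPKM in the 4 labelled KO, and the values do not show which part of the gene these fragments came from. The growth hormone receptor gene Ghr was at 42.2 to 51.6 FPKM in libraries labelled KO and 62.8 to 155 FPKM in those labelled WT without overlap, and Igf1, the insulin-like growth factor that growth hormone induces, was at 0.713 to 2.46 against 2.13 to 8.80 FPKM, both genes being set beside Ghrh without a test. All directions below therefore take the labels as given. Transcripts of other cells also moved with the label. The summed FPKM of 20 skeletal muscle markers was 3065 to 13366 in libraries labelled KO (3065 to 6937 without KO male 1) against 476 to 2563 in those labelled WT, with all 20 higher in the KO mean. The summed FPKM of 17 white adipocyte markers was 2201 to 3165 against 3985 to 7238, with the defining markers Hoxc10 and Tcf21 at 0 in every library. Most of this sum was 1 gene, Car3, at 2118 to 3013 against 3792 to 6806 FPKM. Of the 17, 2 were higher in the KO mean. Library KO male 1 stood apart, with Spearman correlations to the others of 0.924 to 0.934, the highest muscle sum, and 255 FPKM over 10 lymphocyte markers where the other libraries held 2.32 to 5.95. Results are therefore also given without it. The part of these markers in the results on the 10 genes was not tested. In whole tissue, fewer brown adipocytes and less RNA of a gene per brown adipocyte cannot be told apart.

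The 10 genes spanned a wide range of levels. Ucp1 had the highest mean over the 9 libraries, 2124 FPKM, and ranked between 7 and 35 among all genes of a library. Cidea followed at 1569 FPKM, below Ucp1 in 8 of 9 libraries. Then came a gap to Esrra at 71.8 and Ppara at 34.3 FPKM, an order that held in all 9 libraries. Next were Dio2 at 25.9, Elovl3 at 18.5, Ppargc1b at 10.8, Ppargc1a at 10.5 and Ebf2 at 9.03 FPKM. Neighbours in this row could not be ordered, since each exceeded the next in only 4 to 6 of 9 libraries. Dio2 was above Ppargc1b, Ppargc1a and Ebf2 in all 9. Ppara exceeded Dio2 in 7 of 9. Prdm16 was lowest, at 2.89 FPKM, below Ebf2 in all 9.

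The question put to the data was whether the program differed between libraries labelled KO and WT, in both sexes together, in each sex and between sexes. With limma and Benjamini-Hochberg adjustment, 0 of the 10 genes passed an adjusted p of 0.05 for genotype averaged over the sexes, where 529 of the 14675 genes did (3.6%). At an unadjusted limma p of 0.05, 5 of the 10 passed (Ucp1, Cidea, Ppara, Elovl3 and Prdm16), where 20.2% of all genes did. Estimates were higher in libraries labelled KO for 5 of the 10, against 37.5% of all genes. Their median log2 difference was -0.03 against -0.07 over all genes, and their median size of difference regardless of sign was 0.40 against 0.19. The exact permutation test of each gene over the 9 libraries, two-sided, gave a p under 0.05 for 3 of the 10 (Ucp1, Elovl3 and Ppara), where 17.7% of all genes reached it (5.31% higher and 12.4% lower in libraries labelled KO, Ucp1 and Elovl3 being higher and Ppara lower). Without KO male 1 this was 1 of the 10 (Ucp1) against 17.1%. Values of the 2 labels overlapped for all 10 genes, where 9.07% of all genes did not overlap. Without KO male 1 they did not overlap for Ucp1 alone, where 17.5% of all genes did not. Within females 4 of the 10 did not overlap (Ucp1, Elovl3, Esrra and Ppara), against 40.4% of all genes, and within males 5 of the 10 (Ucp1, Ppargc1a, Prdm16, Cidea and Ppara), against 39.4%.

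**Figure D1:**
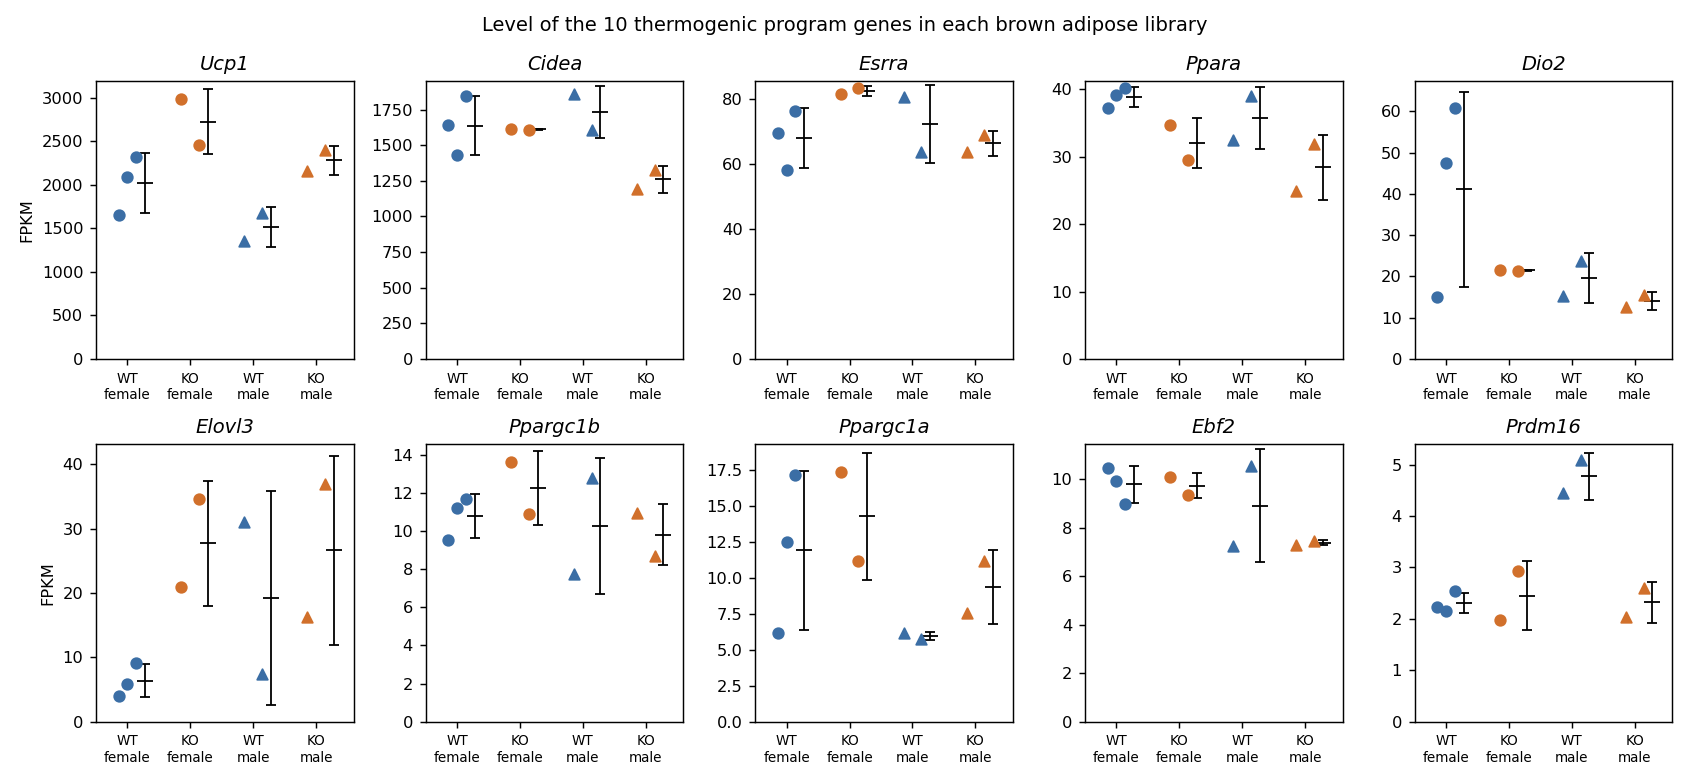
FPKM of the 10 genes in each library (points, circles for females, triangles for males, blue for WT and orange for KO by label), with the mean ± SD of each group of 2 or 3 libraries as black bars, each panel on its own linear axis from 0. Ucp1 is higher in the KO than in the WT libraries within each sex, Prdm16 stands at 4.45 and 5.10 FPKM in the WT males against 1.98 to 2.93 in all other libraries, and Elovl3 and Dio2 spread most.

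Ucp1 (chr8:83290352-83298452, plus strand) encodes the uncoupling protein itself. Its level was 2992 and 2460.3 FPKM in the KO females and 2164 and 2399 FPKM in the KO males. The WT females held 1649.6, 2086 and 2325 FPKM and the WT males 1357 and 1681 FPKM. Within each sex every library labelled KO was above every library labelled WT, which was so for 4.27% of all genes, and across the sexes only KO male 1 lay below the highest WT library, WT female 3. The means were 2504 ± 350 FPKM in KO and 1820 ± 384 FPKM in WT (SD, n = 4 and 5), a difference of 0.52 on the log2 scale (SE 0.13, limma adjusted p 0.0739), or 1.43-fold. The adjusted p stayed between 0.0747 and 0.245 over the alternatives and was 0.0822 without KO male 1. The exact permutation p was 0.0397 for all libraries and 0.0357 without KO male 1, but leaving out any other library except WT female 3 took it to between 0.0536 and 0.0571. By sex the log2 difference was 0.44 in females and 0.59 in males (limma adjusted p 0.371 and 0.184), and the interaction was 0.15 (SE 0.27, adjusted p 0.890).

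Cidea (chr18:67343604-67367785, plus strand) encodes a lipid droplet protein long used as a brown fat marker, and is close to Ucp1 in abundance. The KO females held 1614 and 1609 FPKM, inside the range of the WT libraries at 1639, 1428 and 1846 FPKM in females and 1860.1 and 1605 FPKM in males. The KO males, at 1195 and 1325 FPKM, were below all other libraries. The difference was -0.02 in females and -0.46 in males (SE 0.13 and 0.15, limma adjusted p 0.979 and 0.172). The mean was 1435 ± 210 FPKM in KO and 1676 ± 181 FPKM in WT (SD, n = 4 and 5), with an averaged log2 difference of -0.24 (SE 0.10, limma adjusted p 0.235) and an exact permutation p of 0.103.

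Elovl3 (chr19:46131897-46135694, plus strand) encodes an elongase of very long chain fatty acids that brown fat induces in the cold. It varied most of the 10, with an SD of 1.19 log2 units over the 9 libraries, larger than that of 98.5% of genes at a like level. Its level was 20.9 and 34.6 FPKM in the KO females and 16.3 and 37.0 FPKM in the KO males, against 4.05, 5.90 and 9.12 FPKM in the WT females and 31.0 and 7.49 FPKM in the WT males. A single WT library, WT male 1, lay inside the KO range, and the other 4 were below every KO library. The means were 27.2 ± 10.2 FPKM in KO and 11.5 ± 11.1 FPKM in WT (SD, n = 4 and 5). The averaged log2 difference was 1.42 (SE 0.48, limma adjusted p 0.147), and it was 1.93 with an adjusted p of 0.0403 without WT male 1, the only library whose omission changed the call. Without WT male 2 it was 0.91 with an adjusted p of 0.333, the lowest of the 9 such estimates, and without KO male 1 it was 1.72 with an adjusted p of 0.0913. The exact permutation p was 0.0476 and rose to between 0.0714 and 0.107 without any 1 library other than WT male 1. In females the log2 difference was 2.16 (SE 0.64, limma adjusted p 0.250) and in males 0.69 (SE 0.71, adjusted p 0.698). The opposite strand at this locus carries Pitx3, whose own value was 0.180 to 1.31 FPKM, and whether fragments were assigned by strand is not given in the sources used here.

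Dio2 (chr12:90724552-90738438, minus strand) encodes type 2 iodothyronine deiodinase, which turns thyroxine into active triiodothyronine inside the brown adipocyte. The WT libraries ranged widely, with 14.9, 47.4 and 60.9 FPKM in females and 15.3 and 23.9 FPKM in males. The KO libraries lay close together at 21.6 and 21.3 FPKM in females and 12.5 and 15.5 FPKM in males. So WT female 2, WT female 3 and WT male 2 were above every KO library, while WT female 1 and WT male 1 were among the lowest. The means of 17.7 ± 4.47 FPKM in KO and 32.5 ± 20.7 FPKM in WT (SD, n = 4 and 5) differed by less than the WT spread (log2 difference -0.58, SE 0.40, limma adjusted p 0.484, exact permutation p 0.246). The spread of Dio2, 0.78 log2 units, exceeded that of 96.4% of genes at a like level.

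Of the nuclear receptors, Ppara (chr15:85734983-85802819, plus strand) encodes PPARα, the fatty acid receptor that drives genes of lipid oxidation. It stood at 34.7 and 29.5 FPKM in the KO females, 25.0 and 31.8 FPKM in the KO males, 37.2, 39.2 and 40.2 FPKM in the WT females and 32.5 and 39.0 FPKM in the WT males. Within each sex the KO libraries were below the WT libraries, as for 9.66% of all genes, and across the sexes only KO female 1 exceeded a WT library, WT male 1. The means were 30.2 ± 4.11 against 37.6 ± 3.04 FPKM (SD, n = 4 and 5; log2 difference -0.31, SE 0.10, limma adjusted p 0.140). The exact permutation p was 0.0238. It rose to 0.0571 without any 1 of WT female 1, WT female 2, WT female 3 and WT male 2, to 0.0536 without KO male 1, and to 0.103 when each library was centred on its median.

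Esrra (chr19:6910977-6921813, minus strand) encodes ERRα, an orphan receptor that works with PGC-1α on genes of mitochondrial respiration, and had the smallest SD of the 10, 0.18 log2 units over the 9 libraries. The KO females, at 81.4 and 83.4 FPKM, were the highest of all libraries, above the WT females at 69.5, 58.1 and 76.4 FPKM. The KO males, at 63.6 and 69.0 FPKM, lay within the WT values, those of the WT males being 80.7 and 63.8 FPKM. The log2 difference was 0.29 in females and -0.11 in males (SE 0.14 and 0.16), and 0.09 averaged (SE 0.11, limma adjusted p 0.741). Trmt112 overlaps Esrra on the opposite strand and was at 14.7 to 23.6 FPKM, and the microRNA gene Mir6990, which overlaps it on the same strand, was at 0 to 121 FPKM.

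Of the PGC-1 coactivators, Ppargc1a (chr5:51454250-51567726, minus strand) encodes PGC-1α, the coactivator that cold induces. Its level was 17.4 and 11.2 FPKM in the KO females and 7.57 and 11.2 FPKM in the KO males, and 6.14, 12.5 and 17.2 FPKM in the WT females and 6.16 and 5.74 FPKM in the WT males. The lowest 3 libraries were all labelled WT and the highest 2 were KO female 1 and WT female 3. The means of 11.8 ± 4.08 and 9.53 ± 5.10 FPKM (SD, n = 4 and 5) did not differ beyond their spread (log2 difference 0.49, SE 0.31, limma adjusted p 0.442, exact permutation p 0.349). Males were lower than females by estimate, at -0.74 on the log2 scale (SE 0.31, unadjusted p 0.0444, limma adjusted p 0.461). Ppargc1b (chr18:61298136-61400431, minus strand), its paralog PGC-1β, was at 13.6 and 10.9 FPKM in the KO females, 10.9 and 8.67 FPKM in the KO males, 9.51, 11.2 and 11.7 FPKM in the WT females and 7.75 and 12.8 FPKM in the WT males. WT males held both the lowest and the second highest value. The log2 difference was 0.07 (SE 0.17, limma adjusted p 0.876, exact permutation p 0.754), and its sign turned without KO female 1, KO male 1 or WT male 1 (-0.01, -0.01 and -0.11). The ratio of Ppargc1a to Ppargc1b was above 1 in 3 of 4 KO and 2 of 5 WT libraries, from 0.693 to 1.29 and from 0.449 to 1.47.

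Of the regulators of brown fat identity, Prdm16 (chr4:154316125-154636873, minus strand) encodes the zinc finger factor that holds brown against muscle and white fat fate. It was at 4.45 and 5.10 FPKM in the WT males. Every other library held 1.98 to 2.93 FPKM, namely 2.24, 2.16 and 2.54 FPKM in the WT females, 1.98 and 2.93 FPKM in the KO females, and 2.04 and 2.61 FPKM in the KO males. Both WT males were thus above all the rest, and the other 3 groups overlapped. In males the log2 difference was -1.04 (SE 0.23, limma adjusted p 0.0953), and -1.22 with an adjusted p of 0.0381 without KO male 2. In females it was 0.06 (SE 0.21, adjusted p 0.937). The genotype by sex interaction was -1.11 (SE 0.31, unadjusted p 0.00836, limma adjusted p 0.624), where no gene of the 14675 passed the adjustment by limma or by an ordinary linear model and 7.01% had an unadjusted limma p under 0.05 (1028 genes). Averaged over the sexes the difference was -0.49 (SE 0.16, limma adjusted p 0.130, exact permutation p 0.294).

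Ebf2 (chr14:67233292-67430918, plus strand) encodes a factor that opens chromatin at brown fat genes together with PPARγ. Its level was 10.1 and 9.36 FPKM in the KO females, 7.30 and 7.44 FPKM in the KO males, 10.5, 9.92 and 8.96 FPKM in the WT females and 7.24 and 10.5 FPKM in the WT males. KO males and WT male 1 were the lowest, and all groups otherwise overlapped. The log2 difference was -0.13 (SE 0.12, limma adjusted p 0.649, exact permutation p 0.365) and turned to 0.01 without WT male 2.

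The other comparisons gave the same count of 0 of 10 at an adjusted limma p of 0.05. In females 0.0204% of all genes passed (3) and in males 0.0136% (2). Between the sexes, 0.0136% passed (2). At an unadjusted limma p of 0.05 the members were Ucp1 and Elovl3 in females (12.7% of all genes), Ucp1, Cidea and Prdm16 in males (16.6%), and Ucp1, Ppargc1a and Prdm16 between the sexes (10.4%), where Prdm16 was higher in males (0.49, SE 0.16) and Ucp1 lower (-0.33, SE 0.13).

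**Figure D2:**
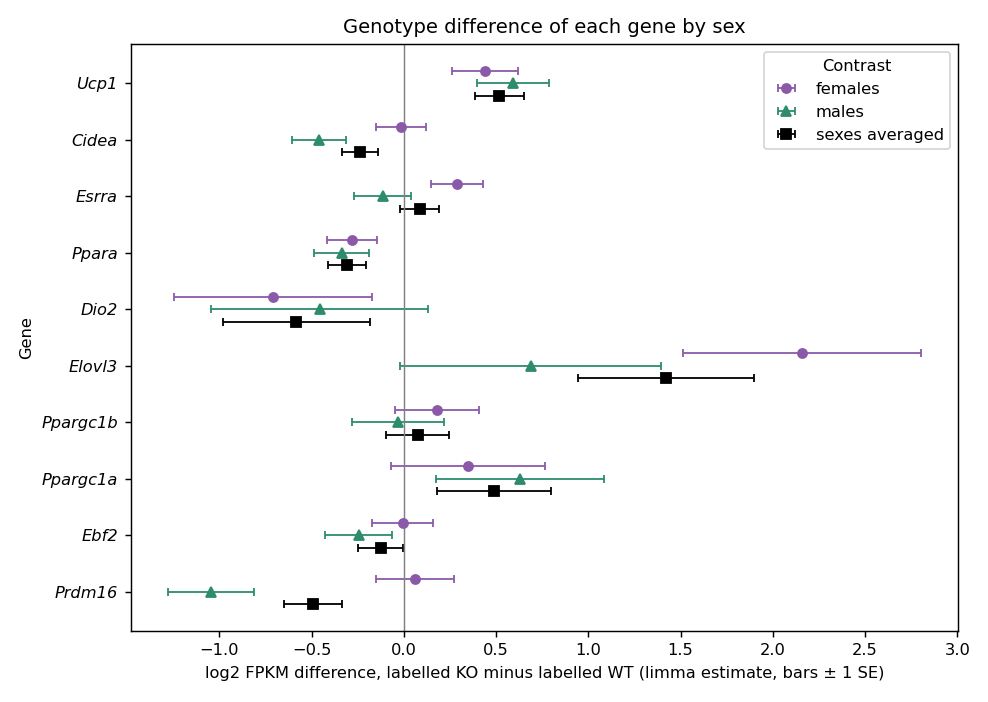
Log2 difference in FPKM, labelled KO minus labelled WT, of each gene in females (circles), in males (triangles) and averaged (squares), as limma estimates with bars of ± 1 SE. Ucp1, Ppargc1a and Elovl3 lie to the right of 0 in all 3, and Ppara, Dio2, Cidea and Ebf2 to the left. In females Cidea and Ebf2 are close to 0, at -0.02 and -0.01. Prdm16 is at -1.04 in males and 0.06 in females, and 0 of the 10 passed a limma adjusted p of 0.05.

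Each library was then ranked for each gene, rank 1 being the highest of 9. KO female 1 had the highest Ucp1, Ppargc1a and Ppargc1b and the lowest Prdm16, with a mean rank of 3.4. WT female 3 had the same mean rank, led in Dio2 and Ppara, and was never among the lowest 3 for any gene. KO male 1 had the lowest mean rank, at 7.2, was never among the top 3, and was last for Cidea, Dio2 and Ppara. It was also the library with the most muscle and lymphocyte transcripts, and the part of these in its ranks was not tested. WT male 1 was split, first for Cidea and last for Ucp1, Ppargc1b and Ebf2. WT male 2 was first for Prdm16 and Ebf2 and last for Ppargc1a. No library was high or low for all 10 genes, and mean ranks otherwise lay between 4.2 and 6.

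**Figure D3:**
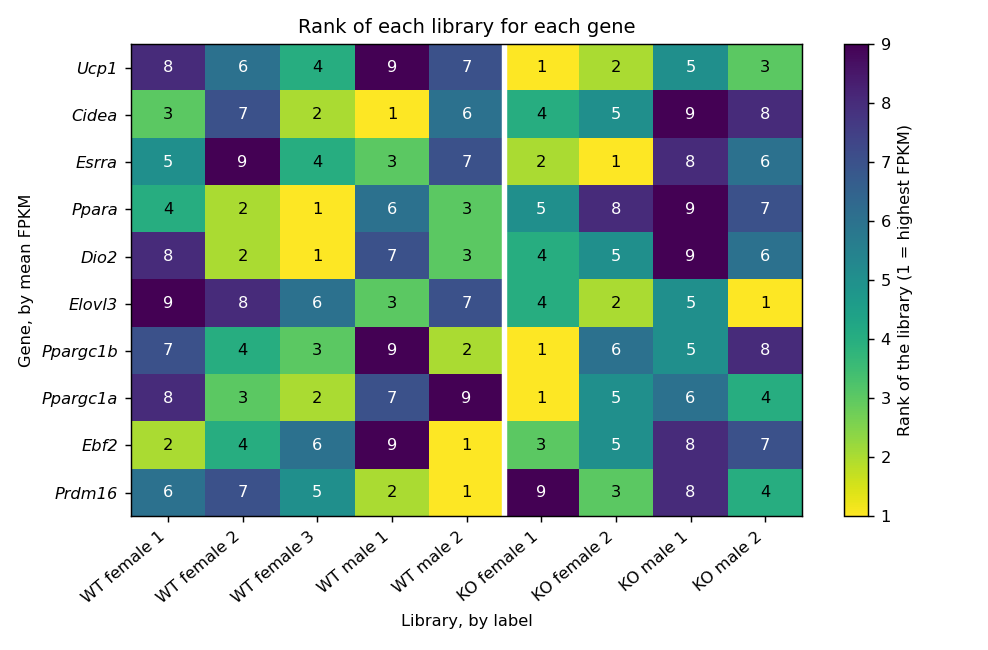
Rank of each library (columns, WT left and KO right of the white line) for each gene (rows, in order of mean FPKM), 1 in yellow being the highest of the 9 libraries and 9 in dark purple the lowest. KO male 1 holds rank 9 in 3 rows and no rank from 1 to 3, while KO female 1 holds rank 1 in 3 rows.

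Pairs of the 10 genes were compared as ratios within each library, a measure that scaling of the library does not change. Of the 45 pairs, 7 had ratios that did not overlap between labels, against 8.77% of all pairs of the 14675 genes, and all 7 were among the 8 without KO male 1, where 16.5% of all pairs did not overlap. These pairs were singled out after their values were seen and are described without a test. Ucp1 took part in 4 of the 7. Its ratio to Ppara was 75.3 to 86.6 in KO and 41.7 to 57.8 in WT, and its ratio to Cidea was 1.53 to 1.85 in KO and 0.730 to 1.46 in WT. The ratio of Ucp1 to any other gene was higher in KO without overlap for 22.3% of the 14674 other genes, and that of any other gene to Cidea for 6.62%. Ucp1 was also separated over Dio2 (115 to 173 in KO, 38.2 to 110 in WT) and over Ebf2 (263 to 322 in KO, 158 to 259 in WT). Among the rest, Ppargc1a over Dio2 was 0.523 to 0.805 in KO and 0.240 to 0.411 in WT. Cidea over Esrra was 18.8 to 19.8 in KO and 23.1 to 25.2 in WT. Prdm16 over Elovl3 was 0.0705 to 0.126 in KO and 0.144 to 0.681 in WT.

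**Figure D4:**
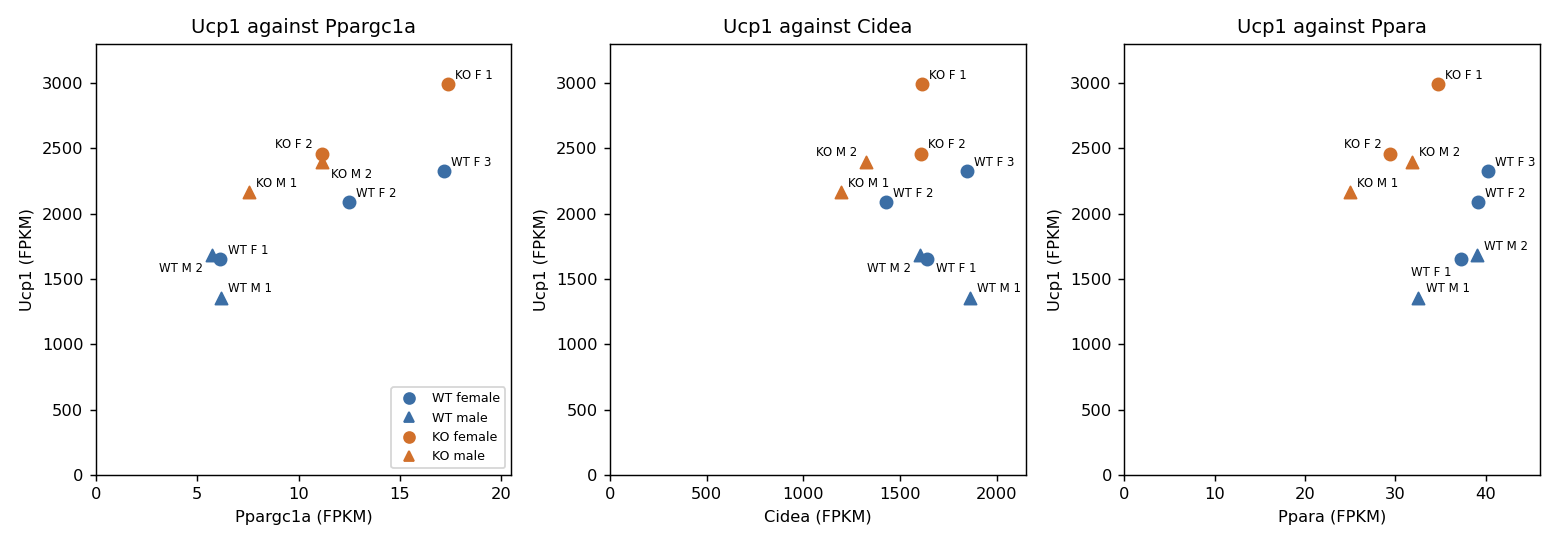
Ucp1 against Ppargc1a, Cidea and Ppara in each library, all in FPKM on linear axes from 0, with libraries named by label, sex and number. Libraries with more Ppargc1a hold more Ucp1 (r 0.849 on the log2 scale over 9 libraries), and relative to Ppara the KO libraries hold more Ucp1 than the WT libraries, at ratios of 75.3 to 86.6 against 41.7 to 57.8.

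Across the 9 libraries the members did not vary as 1 block. Of the 45 pairs, 28 had a Pearson r of log2 FPKM above 0, 6 of them at 0.6 or more, and 3 were at -0.6 or less. The highest r over the 9 libraries was that of Ucp1 and Ppargc1a, at 0.849 (Spearman rho 0.733), 0.886 without KO male 1, 0.798 without the libraries farthest from the median of Ucp1 (WT male 1 and KO female 1), and 0.853 for deviations from the group means. Dio2 followed Ppargc1a at r 0.607, and at 0.850 within groups. Cidea and Esrra were at 0.615, and at 0.970 within groups, the highest such value of the 45. Ucp1 and Dio2 were at 0.245, and at 0.869 within groups. Elovl3 ran against Ebf2 at -0.650, and at -0.866 within groups. It ran against Ppara at -0.636, but at -0.12 within groups, and Ucp1 against Prdm16 at -0.645, but at 0.05 within groups. The points share their libraries and hence their depth and cell makeup, and these values are descriptions over 9 libraries. In a group of 2 libraries the 2 deviations mirror each other, so the values within groups rest on fewer free points than 9.

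Ucp1, Ppargc1a and Dio2 are known as genes that cyclic AMP induces in brown fat, and for this the 250 bases before their RefSeq starts are shown, all 5′ to 3′ on the strand of the gene (RefSeq, GRCm38.p6). CREB and ATF factors, which carry the cyclic AMP signal, bind the element TGACGTCA and its shorter form TGACG. Capitals mark each TGACG or its reverse complement CGTCA, searched on both strands, and in Dio2 these letters overlap as the full TGACGTCA.
Ucp1, chr8:83290098-83290347, plus strand: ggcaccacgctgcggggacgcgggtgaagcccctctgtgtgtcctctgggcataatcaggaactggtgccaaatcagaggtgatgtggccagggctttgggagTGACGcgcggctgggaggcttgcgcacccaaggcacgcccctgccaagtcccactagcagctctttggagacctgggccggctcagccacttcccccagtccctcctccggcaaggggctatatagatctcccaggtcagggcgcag
Ppargc1a, chr5:51567726-51567975, minus strand: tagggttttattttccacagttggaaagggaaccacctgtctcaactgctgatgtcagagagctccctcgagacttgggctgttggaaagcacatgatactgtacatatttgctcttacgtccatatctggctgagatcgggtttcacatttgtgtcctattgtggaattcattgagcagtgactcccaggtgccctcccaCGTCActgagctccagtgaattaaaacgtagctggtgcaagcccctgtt
Dio2, chr12:90739039-90739288, minus strand: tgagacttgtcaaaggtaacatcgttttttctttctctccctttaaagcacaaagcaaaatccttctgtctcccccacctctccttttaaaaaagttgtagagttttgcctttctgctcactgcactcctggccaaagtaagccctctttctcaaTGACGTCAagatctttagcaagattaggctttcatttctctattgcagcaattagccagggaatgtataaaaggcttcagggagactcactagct
The match begins 147 bases before the start in Ucp1, 49 in Ppargc1a and 95 in Dio2. Windows were on hand for 6 of the 10 genes, Ppara, Esrra and Prdm16 being the others, and 4 of the 6 held the letters, Ppara among them but not Esrra or Prdm16. Of all 32851 such windows, 17.8% held TGACG or CGTCA and 1.55% held TGACGTCA. A match is only these letters in this window, and no binding was measured.

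Genes outside the list that followed each member most closely are given by Pearson r of log2 FPKM over the 9 libraries. Ccng2 (r 0.960), Cxcl14 and Aldh16a1 (both 0.948) were closest to Ucp1. Cxcl14, a chemokine secreted by brown fat, was at 87.7 to 111 FPKM in the KO and 37.4 to 102 FPKM in the WT libraries. Ppargc1a was followed by Snrk (0.932), Ffar4 (0.920), a receptor for long chain fatty acids, and Pde4d (0.903), a phosphodiesterase that breaks down cyclic AMP. Elovl3 was followed by Mpc1 (0.970), a subunit of the mitochondrial pyruvate carrier, Cnst (0.968) and Fbp2 (0.956), the muscle form of fructose bisphosphatase. Ppara was followed by Col4a2 (0.981), Wwtr1 (0.971) and Col4a1 (0.969), and so by collagens of the basement membrane. Prdm16 was followed by Fmo1 (0.981), Negr1 (0.973) and Slmap (0.960), and the level of Fmo1 in the WT males, 282 and 299 FPKM, stood above its 147 to 180 FPKM elsewhere as that of Prdm16 did. Cidea was followed by Emc3 (0.977), Itfg3 (0.954) and Chchd6 (0.951), Dio2 by Cdc27 (0.956), Dennd5b (0.945) and Sprtn (0.942), Ebf2 by Dll4 (0.963), Fbxo22 (0.955) and Fgfr1 (0.937), Esrra by Chrnb2 (0.954), Pisd (0.943) and Malsu1 (0.939), and Ppargc1b by Wdr81 (0.950), Mef2a (0.946) and Nfil3 (0.945). The sharpest pick out of all tested genes with a mean of at least 1 FPKM, over 9 libraries, gives high values by selection.

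The wider pathway was read from 9 related gene lists, in the same genotype contrast. Of 29 transcription factors and receptors of brown adipocytes, 1 was called higher in libraries labelled KO and 0 lower, against 1.43% and 2.17% of all genes, with 13 of 29 estimates higher and a median log2 difference of -0.10. The called gene was Esrrb, an orphan receptor related to Esrra, at 1.39 to 1.86 FPKM in KO and 0.506 to 1.23 FPKM in WT (log2 difference 1.06, SE 0.21, limma adjusted p 0.0431). The call was kept in 2 of the 9 fits that left out a library, those without KO male 2 and WT male 1, with an adjusted p of 0.0437 to 0.139 over the 9 (0.0599 without KO male 1). Not called were Klf15, a glucocorticoid-responsive factor (29.6 ± 9.35 against 18.7 ± 4.49 FPKM, limma adjusted p 0.0660), and Irf4, a cold-induced partner of PGC-1α (7.16 ± 4.84 against 18.6 ± 13.2 FPKM, adjusted p 0.117; SD, n = 4 and 5).

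Among 15 coactivators 0 were called, against 3.6% of all genes, and 9 estimates were higher, with a median of 0.04. The closest were Letmd1 (287 ± 30.4 against 221 ± 24.3 FPKM), Perm1 (14.8 ± 2.80 against 10.4 ± 1.74 FPKM) and Kdm3a (4.75 ± 1.14 against 3.63 ± 0.60 FPKM; SD, n = 4 and 5), a mitochondrial protein, a muscle regulator of oxidative genes and a histone demethylase, with limma adjusted p of 0.0899, 0.140 and 0.275. Perm1 was highest in KO male 1, the library with the highest muscle sum. Among 18 corepressors and inhibitors 0 were called, and 3 of the 18 estimates were higher, against 37.5% of all genes, with a median of -0.12. Hdac3, a deacetylase, is in this list although it prepares the Ucp1 enhancer in brown fat. It was at 20.0 to 23.9 FPKM in KO and 25.1 to 29.0 FPKM in WT without overlap (log2 difference -0.27, SE 0.06, limma adjusted p 0.0655). Twist1, which restrains PGC-1α (-0.77, SE 0.19, adjusted p 0.0678), and Nrip1, the corepressor RIP140 (-0.66, SE 0.25, adjusted p 0.196), were not called either.

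Of 23 tested brown-selective target genes outside the 10, 0 were called, against 3.6% of all genes, and 11 estimates were higher (median -0.03). Acot11, an acyl-CoA thioesterase of brown fat, came closest at 77.1 ± 21.2 against 35.9 ± 15.4 FPKM (SD, n = 4 and 5; log2 difference 1.08, SE 0.23, limma adjusted p 0.0503, and 0.0442 without KO male 1). Ntrk3, the neurotrophin 3 receptor (-0.51, SE 0.12), and Slc36a2, an amino acid transporter that marks brown fat (-0.42, SE 0.10), both had an adjusted p of 0.0609. Of 20 tested targets of PPARα, 0 were called, with 10 estimates higher and a median of -0.00. Angptl4, an inhibitor of lipoprotein lipase, was at 87.7 ± 23.2 against 153 ± 46.3 FPKM (limma adjusted p 0.153). Vnn1, a pantetheinase, was at 0.130 to 0.219 FPKM in KO and 0.255 to 1.73 FPKM in WT (adjusted p 0.172), and Acaa1b, a peroxisomal thiolase, differed by 0.19 (SE 0.09, adjusted p 0.290).

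Among 11 very long chain fatty acid elongation genes, 1 was called lower and 0 higher, against 2.17% and 1.43% of all genes. Of their estimates 6 were higher, with a median of 0.04. Elovl5, which elongates polyunsaturated fatty acids, was at 16.3 to 23.3 FPKM in KO and 27.1 to 46.4 FPKM in WT without overlap (log2 difference -0.79, SE 0.11, limma adjusted p 0.0280). The call was lost without WT female 1, KO female 1, KO female 2 or WT male 2, over an adjusted p of 0.0217 to 0.118 (0.0310 without KO male 1). Elovl6, which elongates palmitate, was at 98.6 ± 17.4 against 65.2 ± 25.6 FPKM (SD, n = 4 and 5; 0.60, SE 0.22, adjusted p 0.180) and Hacd2, a dehydratase of the elongation cycle, differed by 0.18 (SE 0.07, adjusted p 0.211), so that Elovl3 and Elovl6 had estimates above 0 and Elovl5 fell.

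Of 11 CIDE and lipid droplet genes, 2 were called lower and 0 higher, against 2.17% and 1.43% of all genes, and 2 of the 11 estimates were higher (median -0.23). Cidec, the paralog of Cidea that enlarges lipid droplets, was at 355 to 523 FPKM in KO and 533 to 689 FPKM in WT without overlap (log2 difference -0.44, SE 0.09, limma adjusted p 0.0456). G0s2, an inhibitor of the lipase ATGL, was at 277 ± 152 against 487 ± 115 FPKM (SD, n = 4 and 5; -0.92, SE 0.15, adjusted p 0.0318). The call of Cidec was kept only without WT male 1 of the 9 fits that left out a library (adjusted p 0.0156 to 0.170; 0.0592 without KO male 1), and that of G0s2 only without KO male 1, KO male 2 or WT male 1 (0.0178 to 0.134). Plin4, a lipid droplet coat protein, was at 39.5 to 66.7 against 71.2 to 124 FPKM (adjusted p 0.0668). Of 14 tested white adipocyte markers, 0 estimates were higher and 2 were called lower (Car3 and Lep). Both calls were lost without any 1 of the WT females, the KO females or WT male 2 (limma adjusted p up to 0.130 and 0.152), Lep also without KO male 1 (0.0634), and their part in this list was not tested.

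Of 6 other mitochondrial uncoupling and carrier proteins, 0 were called, against 3.6% of all genes, with 3 estimates higher and a median of -0.01. The ATP/ADP carrier of muscle and heart, Slc25a4, was at 433 to 633 FPKM in KO and 285 to 391 FPKM in WT without overlap (log2 difference 0.54, SE 0.13, limma adjusted p 0.0600) and was highest in KO male 1. Its paralog Slc25a5 was at 280 to 331 FPKM in KO and 330.3 to 366 FPKM in WT (-0.21, SE 0.06, adjusted p 0.101). Ucp2, abundant in immune cells, was at 106.5 FPKM in KO male 1 and 19.6 to 24.2 FPKM in the other KO libraries, against 33.5 to 71.0 FPKM in WT (log2 difference -0.58, SE 0.45, adjusted p 0.552, and -1.16, SE 0.26, adjusted p 0.0593 without KO male 1). Of 8 tested genes of thyroid hormone activation and transport, 0 were called and 2 estimates were higher (median log2 difference -0.17). The transporters Slc7a8 (-0.34, SE 0.14, limma adjusted p 0.218) and Slc16a10 (-0.22, SE 0.10, adjusted p 0.264) had estimates below 0. None of the 9 lists had a gene called for sex or interaction by limma.

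**Figure D5:**
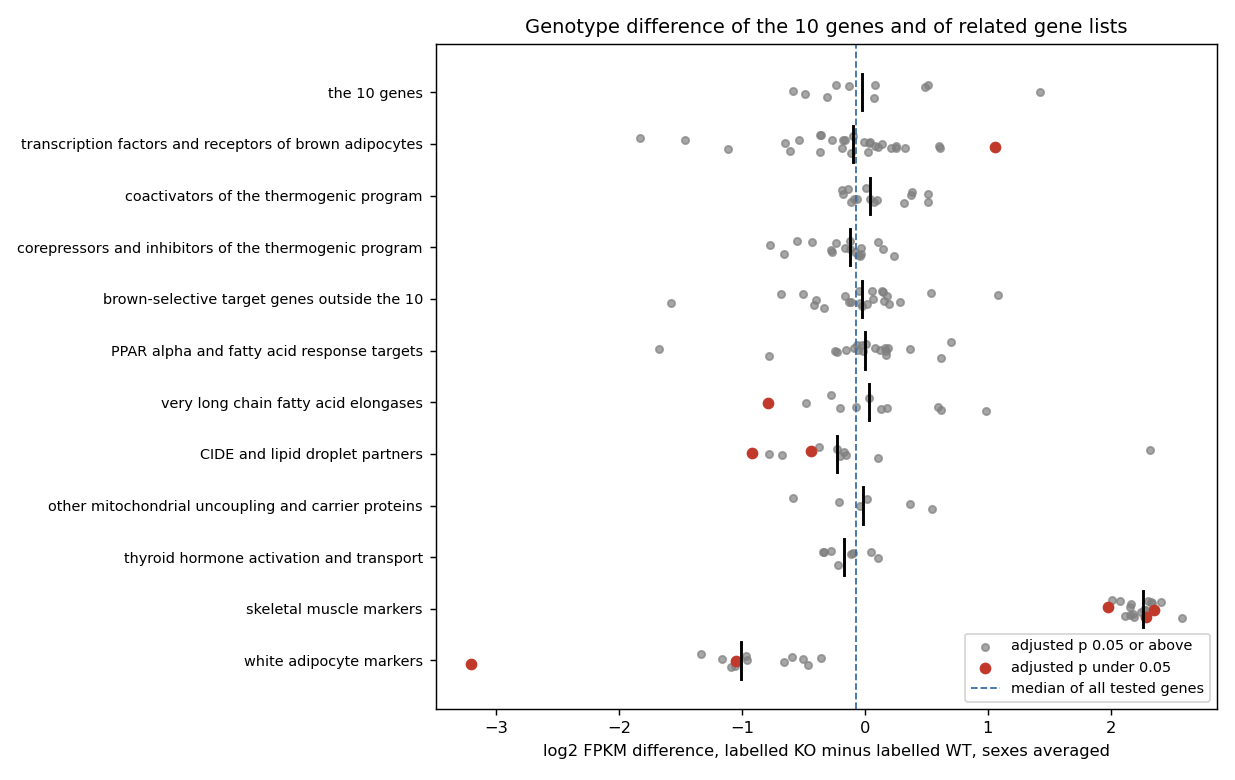
Log2 difference in FPKM, labelled KO minus labelled WT and averaged over the sexes, of each tested gene (points, red where the limma adjusted p is under 0.05) in the 10 genes, the 9 related lists and the muscle and white adipocyte markers, with a black bar at each list's median and a dashed line at the median of all genes (-0.07). The medians of the 10 genes and the related lists lie between -0.23 and 0.04, that of the muscle markers at 2.26 and that of the white adipocyte markers at -1.01.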

How the data were processed

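The authors deposited FPKM by gene symbol for 9 brown adipose libraries, made from polyA+ RNA and read as paired ends of 50 bases. The submitters' processing notes name bcl2fastq 1.8.4, TopHat2 2.0.11, Bowtie and mm10. No counts were used, so depth is known only as a ratio. FPKM were taken as log2 with no pseudocount and no further scaling, for the 14675 genes above 0 in all 9 libraries. The 10 genes and all lists were chosen with earlier results of these data known. A limma model held a mean per group with a mean-variance trend, Benjamini-Hochberg adjustment over all genes and a threshold of 0.05, in 5 contrasts. The methods' own model, a linear model with genotype, sex and their interaction, was an alternative. It was read in the same 5 contrasts with the same adjustment and threshold, not at the methods' own threshold, so its counts are not those of the study. Single genes were tested by exact permutation of the labels, all arrangements counted, two-sided, with a smallest p of 0.00794. No p was adjusted over the 10 genes. Code was tested on simulated data. Named are the 10 genes, Ghrh, the called genes of each related list or up to 3 with the lowest p, the 3 genes outside the list most correlated with each member (mean of at least 1 FPKM), and marker genes called or at 0; 1 gene that this rule names is not reported here. Positions are of whole genes in GENCODE M21 (mm10). Software was limma 3.58.1 in R 4.3.3, and Python 3.11.15 with scipy 1.17.1, numpy 2.4.6, matplotlib 3.10.9 and pandas 2.3.3. The settings tried are described at the end.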

Additional observations from a re-analysis of the deposited data

Results flagged for a closer look

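The highest and the lowest library of each label were checked for each of the 10 genes, 40 checks in all. In 1 of the 10 genes a library stood apart from the others of its label. Elovl3 was at 31.0 FPKM in WT male 1 and at 4.05 to 9.12 FPKM in the other 4 libraries labelled WT. In the same library Acot11 was at 61.2 FPKM, against 20.0 to 36.1 FPKM in the other WT libraries, and Elovl6 was at 109 FPKM, against 47.7 to 65.1 FPKM. These genes were set beside Elovl3 after their values were seen. In KO male 1 the summed FPKM of 10 macrophage markers was 554, against 43.5 to 54.8 in the other libraries labelled KO, and that of 10 lymphocyte markers was 255, against 2.32 to 2.68. Chance alone sets about 1 in 20 groups apart in this way, a group being 1 gene or 1 marker list in the libraries of 1 label.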

How the results depend on the processing

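For the genotype difference with the sexes averaged, 0 of the 10 genes were called under the 11 alternatives in scale, filter, scaling, model and test, and 1 was called without 1 library (Elovl3 without WT male 1). The count over all genes was 529 with 210 higher (39.7%). It was 170 with no filter and a pseudocount of 0.1, changed together, 222 with median centring, of which 130 were higher (58.6%), and 228 of 444 were higher with quantile normalization (51.4%). It was 19 by the ordinary linear model, 34 by limma without trend and 55 with library weights. Leaving out 1 library gave 8 to 1105, namely 9, 23 and 37 without WT females 1, 2 and 3, 8 and 27 without KO females 1 and 2, 442 and 1105 without KO males 1 and 2, and 816 and 29 without WT males 1 and 2. In females the count of 3 became 11 with a mean of at least 1 FPKM, 1 by the ordinary linear model, 0 without trend and 372 with weights, and 0 to 19 without 1 library. In males the count of 2 became 19 with that mean, 0 with a pseudocount of 1, 1 with no filter and that pseudocount of 0.1 or with quantile normalization, 0 by the ordinary linear model, without trend or with weights, and 0 to 1293 without 1 library (1 of the 10, Prdm16, without KO male 2). For sex the count of 2 became 10 with no filter and a pseudocount of 0.1, 1 with median centring, 8 by the ordinary linear model and 1 to 803 without 1 library. For the interaction it was 0 to 721 without 1 library. The count of 3 exact permutation p under 0.05 became 1 with median centring and 0 to 2 without 1 library, where the smallest possible p rises.

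Some signs turned. In females Cidea came to 0.093 and Ebf2 to 0.10 with median centring, and Ebf2 to 0.029 with quantile normalization and 0.015 with weights. In males Ppargc1b came to 0.0036 with quantile normalization. Without 1 library, the averaged difference ran from -0.11 to 0.25 for Ppargc1b (exact test -0.045 to 0.17) and -0.26 to 0.0093 for Ebf2. In females it ran from -0.070 to 0.67 for Ppargc1a, -0.22 to 0.35 for Prdm16, -0.11 to 0.075 for Cidea and -0.068 to 0.048 for Ebf2. In males it ran from -0.39 to 0.33 for Ppargc1b, -0.34 to 1.71 for Elovl3, -0.52 to 0.025 for Ebf2 and -0.28 to 0.055 for Esrra. The interaction ran from -0.00081 to 0.31 for Ucp1, -0.041 to 0.70 for Ppargc1a, -0.57 to 0.15 for Ppargc1b, -0.15 to 0.87 for Dio2, -0.51 to 0.032 for Ebf2 and -0.23 to 0.12 for Ppara. Of the 11 settings other than leaving out a library, the call of Elovl5 held in 8, those of Esrrb and G0s2 in 4 each and that of Cidec in 2, and all 4 were lost by the ordinary linear model, by limma without trend and with weights. Where a group keeps 1 library, that library is assumed to vary like the others. The cause was not tested. Depth limits the lowest values, such as Prdm16. No paired analysis was possible because the library numbers only name libraries.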

Other observations

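The marker lists are read against all genes, of which 2.17% were called lower and 1.43% higher in libraries labelled KO and 37.5% had a higher estimate. Of 10 pan-adipocyte markers 1 was called lower and 1 estimate was higher, and their summed FPKM was 11960.1 to 17807 in KO against 17162 to 23510 in WT, KO female 2 being above WT female 2. Lpl, the lipase that takes up circulating fat, was called lower, at 691 ± 144 against 929 ± 163 FPKM (SD, n = 4 and 5; log2 difference -0.48, SE 0.08, limma adjusted p 0.0347, and 0.0212 to 0.134 over the 9 fits without 1 library). Adipoq, the hormone adiponectin, was at 463 to 676 FPKM in KO and 735 to 1014 FPKM in WT without overlap (-0.59, SE 0.13, adjusted p 0.0559). Cd36, a fatty acid transporter, was at 356 ± 55.2 against 450.1 ± 52.1 FPKM (adjusted p 0.0668).

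Of 11 fibroblast and progenitor markers 4 were called lower, the collagens Col1a1, Col1a2 and Col3a1 among them, and 1 estimate was higher. Of 10 endothelial markers 0 were called and 0 estimates were higher (median -0.33), with Tek at 5.83 to 7.94 FPKM in KO and 8.0 to 10.4 FPKM in WT. Of 10 macrophage markers 1 was called lower, Cd163, at 0.856 to 1.40 FPKM against 1.78 to 2.58 FPKM (limma adjusted p 0.0347). Of 10 lymphocyte markers 0 were called and 10 estimates were higher (median 1.32), KO male 1 being included. Of 7 tested nerve and Schwann cell markers 0 were called and 0 estimates were higher, and of 5 tested red blood cell markers 1 was called lower, Hbb-bs. It was at 0.0036 to 0.0038 FPKM, near the floor, in the KO females and KO male 2. KO male 1 held 4.70 FPKM of it, and the WT libraries 9.67 to 32.3 FPKM. The summed FPKM of 7 red blood cell markers overlapped, at 439 to 954 in KO against 652 to 1854 in WT. Each call named here was lost without any 1 of the WT females, the KO females or WT male 2, with limma adjusted p of up to 0.159. The calls of Lpl (0.0506), Col1a1 (0.0652) and Col3a1 (0.0609) were also lost without KO male 1, and that of Hbb-bs (0.0542) without WT male 1, on the same limma adjusted p.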
